A study of Nicotiana tabacum with 6 samples.

Results

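Small subunit ribosomal protein genes of cultivated tobacco (Nicotiana tabacum) were described across seedlings grown with little or ample nitrogen. Members were all genes whose deposited symbol starts with a name made of RPS, a number and up to 2 capital letters, as in RPS3A. The rule found 253 genes of the 69500 in the table, under 40 names. Low nitrogen seedlings received 0.75 mM ammonium nitrate for 15 days and control seedlings 7.5 mM in an otherwise equal Hoagland-type solution, renewed every 7 days. Each group had 3 libraries of polyadenylated RNA. The labels give the material only as seedling, and neither organ, cultivar nor genotype is given in the sources used here. Independence of the 3 libraries of a group is not stated, and p-values cover only the spread between these libraries, which may be technical.

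The cytosolic ribosome reads messenger RNA on its small (40S) subunit, where transfer RNAs are matched to codons, and joins amino acids on its large (60S) subunit. Each small subunit holds 1 copy of every RPS protein. Plants encode most of these proteins by several genes, which carry a final letter in Arabidopsis (RPS28A, RPS28B). Making ribosomes takes a large share of a growing cell's nitrogen, and ribosomal protein genes are most active in growing and dividing tissue. Plastids and mitochondria have ribosomes of their own, whose proteins carry RPS numbers as well. No sequence of these genes was used here, so none is shown.

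Not all members were cytosolic ribosomal proteins. Many deposited symbols carry a locus tag of Arabidopsis beside the name, from which a class was assigned. A copy letter was taken as the mark of a cytosolic protein, which gave 134 genes, for 19 proteins with 4 to 11 genes each. The letter alone does not settle this for every gene, such as those named RPS15AE. Locus tags or synonyms of plastid ribosomal proteins stood beside 16 genes (RPS1, RPS6, RPS9, RPS20 and RPS31), and those of mitochondrial ribosomal proteins beside 29 (RPS3, RPS4 and RPS19). A further 10 genes named RPS4 carried the locus tag of an Arabidopsis disease resistance receptor, where the letters stand for resistance to Pseudomonas syringae. The remaining 64 genes, under 12 names, had no tag or a rice tag, and were kept as a group without a class. A single letter A can also belong to the protein name, but the tag beside RPS3A is that of a copy of RPS3. The tags come from similarity to another species, as far as the symbols show, and were not checked against tobacco proteins. The rule leaves out small subunit genes spelled in another way, such as 5 RPSaB, 6 RpS18 and 5 UBI3 genes.

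Total counts per library ran from 13602774 to 15620067 in low nitrogen and from 13027374 to 13873200 in controls. Libraries of a group were not alike, with chi-square values of at least 13.04 per degree of freedom within groups. In log2 CPM over all genes tested, control replicate 3 correlated at 0.937, 0.944 and 0.940 with low nitrogen replicates 1 to 3, and at 0.927 and 0.919 with control replicates 1 and 2, so that it lay closer to the low nitrogen libraries. Summed green tissue markers (141 light-harvesting and photosystem genes) were at 1117, 553 and 288 CPM (counts scaled to one library total, with TMM factors that centre most genes between libraries) in low nitrogen replicates 1 to 3, against 247, 210 and 1918 CPM in control replicates 1 to 3. Of the 38482 genes that passed the filter on low counts, 0% (0 genes) passed an adjusted p of 0.05 with edgeR's quasi-likelihood test, 5.66% were lower and 6.1% higher in low nitrogen at an unadjusted p under 0.05. limma-voom called 0 genes, and DESeq2 called 1.62% of 36188 genes, with 0.87% lower. Nothing called at an unadjusted p is a result past the threshold.

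Most cytosolic small subunit genes had fold changes slightly below 0 in low nitrogen, and none passed the threshold. Their summed level was 9948, 10081 and 11821 CPM in low nitrogen replicates 1 to 3, against 14255, 11632 and 13125 CPM in control replicates 1 to 3. Low nitrogen replicate 3 lay just above control replicate 2, so that the groups overlapped. The means were 10616.5 ± 1045 CPM in low nitrogen and 13004 ± 1316 CPM in controls (SD, n = 3 each), 81.6% of the control level. The log2 ratio was -0.29, against an SD between libraries of 0.14 on that scale. As counts, these genes took 1.03% to 1.35% of a library. In bulk RNA fewer cells that express a gene and less of its RNA per cell cannot be told apart, and CPM gives no amount per plant or per cell.

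**Figure D1:**
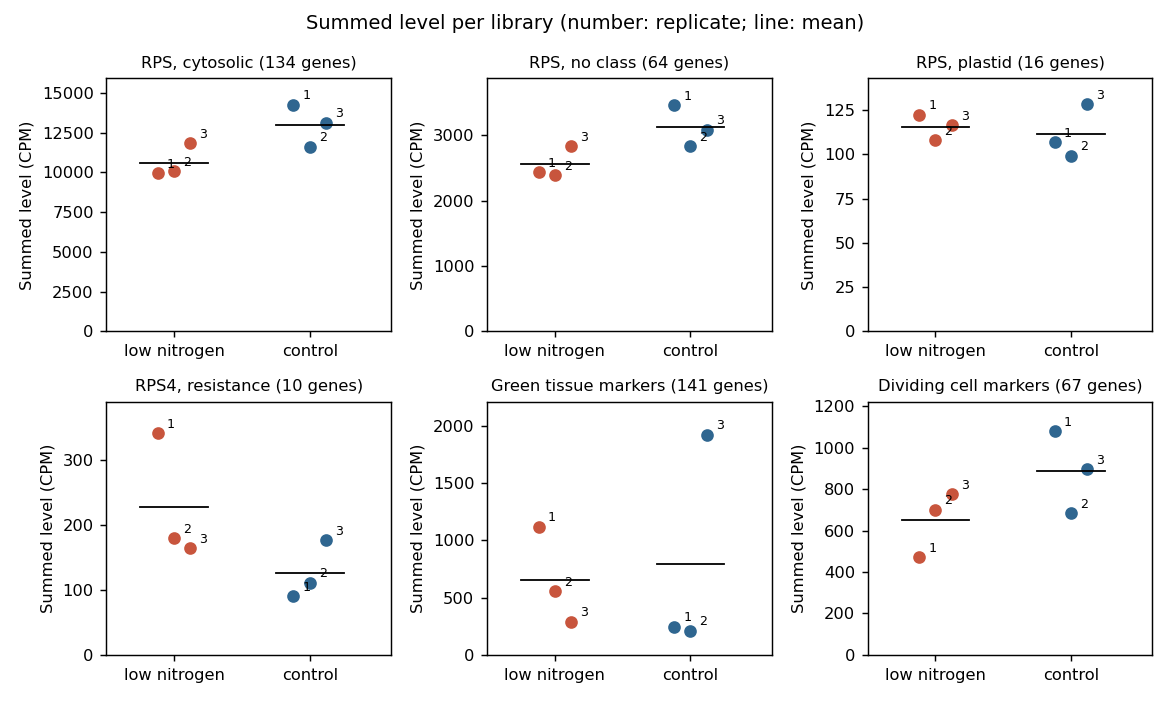
Summed level in CPM per library (vertical axis, from 0) for 4 classes of RPS genes and 2 marker lists, with points numbered by replicate and a line at the mean of each group of 3. Cytosolic RPS genes lay between 9948 and 11821 CPM in low nitrogen and between 11632 and 14255 CPM in controls, and control replicate 3 stands apart in green tissue markers.

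Of the 134 cytosolic genes, 113 passed the filter on low counts, 10 had no counts in any library and 11 had at most 30 counts over all 6 libraries. The fold change was below 0 for 103 of the 113, against 49.7% of all genes tested. Its median was -0.33 on the log2 scale, with quartiles at -0.44 and -0.18, while the median of all genes tested was 0.003. At an unadjusted p under 0.05, 33 genes (29.2%) were lower and 0 higher, against the 5.66% lower among all genes. With edgeR 0 of the 113 passed the threshold (smallest adjusted p 0.343), and with DESeq2 and limma-voom 0 passed as well, with 44 and 37 lower at an unadjusted p under 0.05. In 43 of the 113 genes every low nitrogen library lay below every control library, against 8.54% of all genes tested. In 0 genes every low nitrogen library lay above, against 9.66% of all genes tested. The count of 33 rests on single libraries. With low nitrogen replicate 1, 2 or 3 left out it was 7, 8 or 54, where 3.34%, 4.71% or 7.14% of all genes were lower. With control replicate 1, 2 or 3 left out it was 1, 39 or 13, where 2.76%, 4.96% or 6.69% of all genes were. It was 1 (0.885%) when the library with the highest green tissue markers was left out of each group at once (low nitrogen replicate 1, control replicate 3). In that setting 4.83% of all genes were lower. In these settings 95 to 108 of the 113 genes were below 0, not always the same ones.

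**Figure D2:**
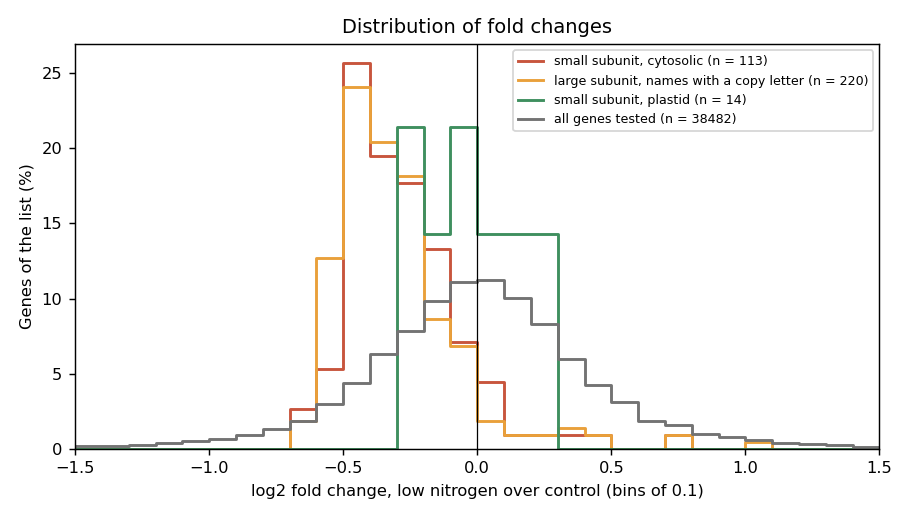
Share of genes (vertical axis, percent of each list) by log2 fold change, low nitrogen over control (horizontal axis, bins of 0.1), for cytosolic small subunit genes, large subunit genes with a copy letter, plastid small subunit genes and all genes tested. The first 2 lists peak between -0.5 and -0.4, left of all genes.

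Summed over copies, the transcript totals of all 19 cytosolic proteins had a fold change below 0 in low nitrogen. Totals do not depend on how reads were divided between the copies of a protein that the rule kept. Reads that were lost, or counted for genes outside the rule, are not recovered by summing. The median log2 fold change of the totals was -0.29, and the 16 totals given by name ran from -0.39 to -0.11. With edgeR 0 of the 19 totals passed the threshold (adjusted p 0.485 to 0.791 for those 16), 0 had an unadjusted p under 0.05, and 0% of the 38336 totals and genes of that fit were called. In 7 of 19 proteins, among them RPS2, RPS3, RPS9, RPS10, RPS14 and RPS25, the 3 low nitrogen libraries lay below the 3 controls, against 8.49% of all totals and genes. The libraries kept much the same order from protein to protein. Control replicate 1 was the highest of the 6 in 19 of 19 proteins and control replicate 2 the lowest control in 19 of 19. Low nitrogen replicate 3 was the highest of its group in 18 of 19, and the lowest of all 6 was low nitrogen replicate 1 in 10 proteins and low nitrogen replicate 2 in 9. Because the proteins share these libraries, they are not independent observations of the treatment. Gene lengths were not used, so CPM are compared between libraries and not between proteins.

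**Figure D3:**
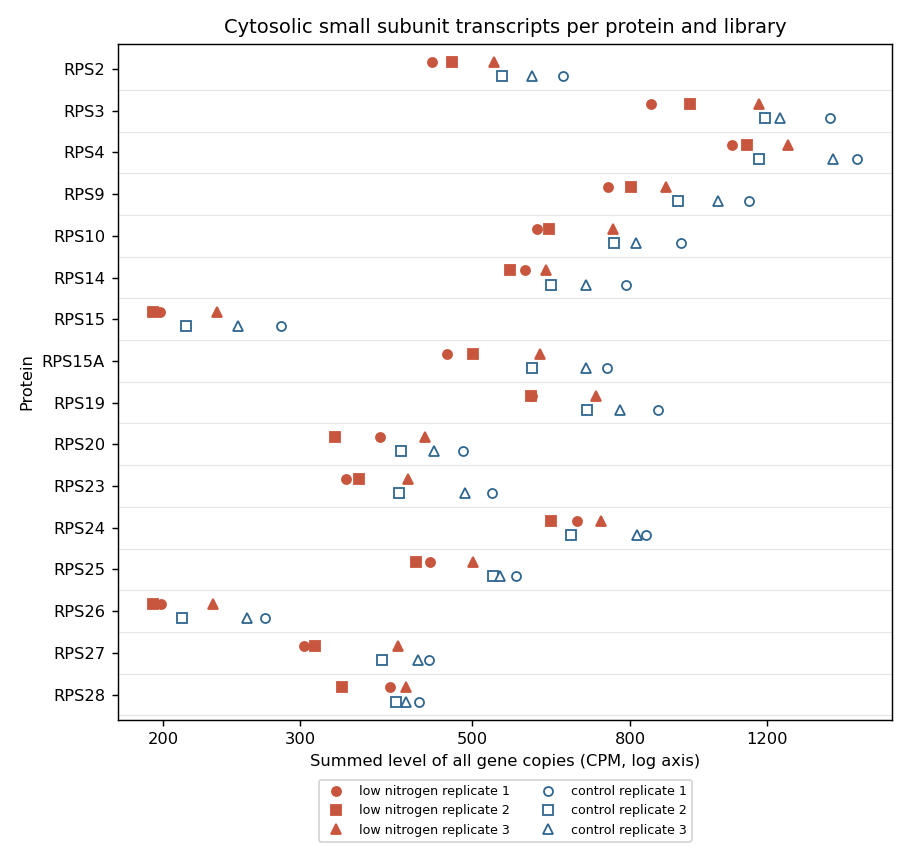
Summed level of all gene copies of each of 16 cytosolic proteins (horizontal axis, CPM on a log scale), with filled red symbols for low nitrogen, above open blue ones for controls, and 1 symbol shape per replicate number. In each of the 16 proteins control replicate 1 lies furthest right, and the groups lie apart in RPS25 and overlap in RPS28.

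Transcript totals of proteins at the messenger RNA entry and decoding site were among the lower ones. RPS3 (uS3), which lines the entry of the messenger RNA channel, totalled 850.0, 956 and 1171 CPM in low nitrogen replicates 1 to 3, against 1450, 1192 and 1249 CPM in controls. The groups did not overlap, although low nitrogen replicate 3 came close to control replicate 2 (log2 fold change -0.39, SE 0.22, edgeR adjusted p 0.517). RPS9 (uS4), another protein of the entry channel, totalled 748, 803 and 889 CPM in low nitrogen and 1137, 922 and 1038 CPM in controls (log2 fold change -0.34, SE 0.20). RPS2 (uS5), beside them at the channel, was at 483 ± 46.6 and 599.6 ± 54.8 CPM in low nitrogen and controls (SD, n = 3 each). RPS23 (uS12), which reaches into the decoding centre, was at 372 ± 37.4 CPM in low nitrogen and 475 ± 65.2 CPM in controls, with control replicate 2 inside the low nitrogen range. These 4 totals stood at 76.5% to 80.6% of the control mean. RPS10 (79.5%) and RPS15A (77.1%), described below, lay in this range too.

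At the exit of the messenger RNA channel the totals stood at 83.4% to 92.4% of the control mean. Totals of proteins elsewhere, such as RPS15, RPS20 and RPS24, lay in this range too. RPS28 (eS28) totalled 392, 340 and 412 CPM in low nitrogen replicates 1 to 3, against 427, 399 and 411 CPM in controls, which overlapped (92.4% of the control mean, log2 fold change -0.11, SE 0.16). RPS26 (eS26), which in yeast touches the messenger RNA just before the start codon, was at 208 ± 20.7 CPM in low nitrogen and 246 ± 30.9 CPM in controls, and RPS14 (uS11) of the platform at 590 ± 31.3 and 708 ± 78.7 CPM (SD, n = 3 each). Of these exit totals only RPS14 had no overlap between groups. The entry and exit sets were not tested against each other, so that the difference between them is a description. The SE of their totals was 0.16 to 0.22 on the log2 scale.

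Other totals were of proteins in the head of the subunit, to which RPS3 and RPS28 also belong. RPS10 (eS10), at the beak, totalled 606, 629 and 759 CPM in low nitrogen and 930.0, 763 and 814 CPM in controls, where low nitrogen replicate 3 and control replicate 2 were nearly equal. RPS19 (eS19), needed in yeast and human cells to mature the 18S ribosomal RNA, totalled 598, 596 and 722 CPM in low nitrogen and 869.8, 704 and 776 CPM in controls. RPS15 (uS19), RPS20 (uS10) and RPS25 (eS25) stood at 83.9%, 85.8% and 83.1% of the control mean, and of these only RPS25 had no overlap between groups.

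The totals given here for body proteins stood between 77.1% and 88.1% of the control mean. RPS4 (eS4) totalled 1082, 1133 and 1277 CPM in low nitrogen replicates 1 to 3, against 1571, 1174 and 1462 CPM in controls, with overlap through control replicate 2 (log2 fold change -0.27, SE 0.22). RPS24 (eS24) totalled 682, 632 and 733 CPM in low nitrogen and 839, 670 and 816 CPM in controls, at 88.1% of the control mean. RPS15A (uS8) stood at 77.1% and RPS27 (eS27), a zinc finger protein, at 81.5% of the control mean, both with overlap.

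The copies of 1 protein mostly shared its direction, but not its size. Among the 105 cytosolic copies with a mean of at least 5 CPM, 97 had a fold change below 0 and 8 above. The range between copies of 1 protein had a median of 0.43, with 0.18 in RPS10 and 0.75 in RPS26 on the log2 scale, while the SE of a single such copy was 0.11 to 0.23. Whether copies of a protein changed their shares was tested with edgeR's diffSpliceDGE over 6711 groups of genes with the same name, of which 1.48% passed the adjusted threshold and 10.6% had an unadjusted p under 0.05. Of the 19 cytosolic proteins 0 passed the threshold, and 3 had an unadjusted p under 0.05, among them RPS28 (adjusted p 0.0537) and RPS26 (0.438). limma's diffSplice gave an adjusted p of 0.109 for RPS28 and 0.607 for RPS26. The adjusted p of RPS28 with 1 library left out ran from 0.0549 to 0.694, and was highest when control replicate 1 (0.694) or low nitrogen replicate 1 (0.677) was dropped.

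**Figure D4:**
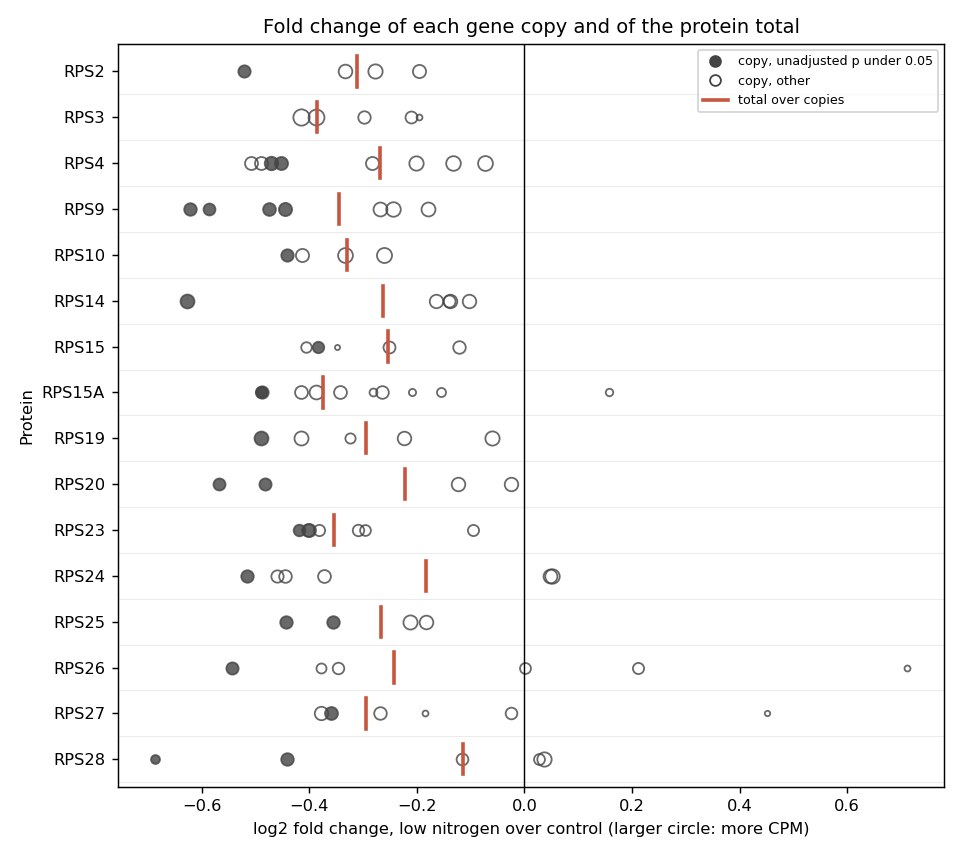
Log2 fold change, low nitrogen over control (horizontal axis), of each tested gene copy (circles, larger with more CPM, filled at an unadjusted p under 0.05) and of the total over copies (red bars) for 16 cytosolic proteins. Totals lie between -0.39 and -0.11, and filled circles lie only left of 0.

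Fold changes of RPS28 copies lay apart, although the test of copy shares did not pass the threshold. The copy with most counts (RPS28A, Nitab4.5_0002769g0030) was at 223, 180 and 216 CPM in low nitrogen replicates 1 to 3 and at 211, 192 and 200.4 CPM in controls, a log2 fold change of 0.04 (SE 0.15). The copy with the smallest p of all members (RPS28A, Nitab4.5_0000358g0180) was at 8.26, 11.3 and 10.4 CPM in low nitrogen, against 17.5, 15.2 and 15.6 CPM in controls. Its groups did not overlap (log2 fold change -0.69, SE 0.17, unadjusted p 0.00431, edgeR adjusted p 0.343). The leading copy held 56.8%, 52.8% and 52.5% of the RPS28 counts in low nitrogen libraries, above the 49.5%, 48.1% and 48.7% in controls.

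RPS26 and RPS24 showed a wide spread as well. The RPS26C copy with most counts (Nitab4.5_0003941g0010) was at 46.5, 53.0 and 76.1 CPM in low nitrogen and at 93.1, 77.9 and 84.7 CPM in controls, without overlap (log2 fold change -0.54, SE 0.20). A further RPS26C copy (Nitab4.5_0002091g0070) was at 49.2, 41.8 and 43.3 CPM in low nitrogen and at 36.8, 34.2 and 45.0 CPM in controls, so that the groups overlapped through control replicate 3 (log2 fold change 0.21, SE 0.15). Of 6 tested RPS24A copies, the pair with most counts had log2 fold changes of 0.05 each and the other 4 of -0.52 to -0.37.

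**Figure D5:**
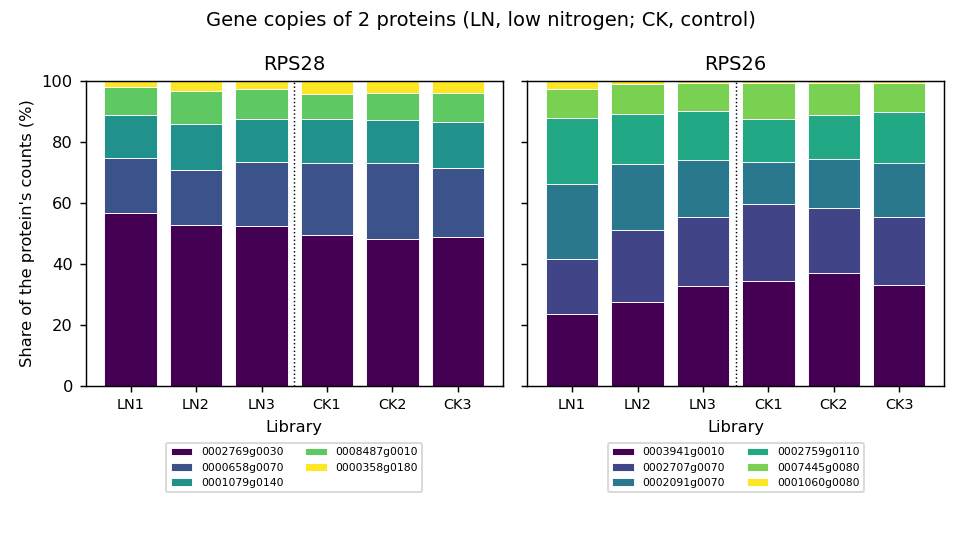
Share of the counts of RPS28 and RPS26 (vertical axis, percent) that fell on each tested gene copy, by library, with low nitrogen (LN) left of control (CK) and copies stacked from most counts at the bottom. The bottom copy of RPS28 holds 52.5% to 56.8% in low nitrogen and 48.1% to 49.5% in controls, and that of RPS26 23.4% to 32.8% and 33.1% to 36.8%.

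Over the 19 proteins the share of the leading copy did not move in 1 direction. Its mean share was higher in low nitrogen for 11 of 19 proteins. In 6 proteins its share in every low nitrogen library lay above every control, and in 1 below. No such count is given for the other groups of genes with the same name, so that both are a description. The leading copies had a median log2 fold change of -0.26 and the other 94 tested copies one of -0.34. With edgeR, 3 of the 19 leading copies and 30 of the other 94 were lower at an unadjusted p under 0.05, against 5.66% of all genes. Leading and other copies were not tested against each other. Among the leading copies of the proteins with the largest totals, RPS3A (Nitab4.5_0006849g0010) was at 473 ± 84.3 CPM in low nitrogen and 631 ± 67.7 CPM in controls. RPS10A (Nitab4.5_0003658g0040) was at 269 ± 26.4 CPM in low nitrogen and 323 ± 27.5 CPM in controls. The leading copies of RPS4A (Nitab4.5_0000967g0040), RPS19A (Nitab4.5_0001961g0030) and RPS24A (Nitab4.5_0002840g0050) had log2 fold changes of -0.07, -0.06 and 0.05, each with an SE of 0.17 to 0.19. Their sign turned when 1 library was left out.

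Copies of RPS9 and RPS20 other than the leading one were among those with the smallest p. The RPS9B copy Nitab4.5_0004485g0010 was at 52.2, 70.4 and 78.1 CPM in low nitrogen, against 117, 86.0 and 106 CPM in controls (log2 fold change -0.62, SE 0.20, edgeR adjusted p 0.373). The RPS9B copy Nitab4.5_0013997g0010 was at 48.9 ± 9.17 CPM in low nitrogen and 73.4 ± 11.1 CPM in controls (log2 fold change -0.59, SE 0.19). The leading RPS9B copy (Nitab4.5_0002499g0050) was at 209 ± 19.4 CPM in low nitrogen and 248 ± 25.6 CPM in controls (SD, n = 3 each, log2 fold change -0.24, SE 0.16). The RPS20B copy Nitab4.5_0001937g0060 was at 45.8, 46.3 and 65.5 CPM in low nitrogen and at 86.3, 72.9 and 74.2 CPM in controls, so that all low nitrogen libraries lay below (log2 fold change -0.57, SE 0.18).

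Of the 64 genes without a class, 45 were tested, 40 of them below 0, with a median log2 fold change of -0.29. At an unadjusted p under 0.05, 11 (24.4%) were lower, against 5.66% of all genes, and 0 were higher, against 6.1%. With edgeR 0 passed the threshold. The count of 11 became 3, 4 or 22 with low nitrogen replicate 1, 2 or 3 left out and 2, 11 or 6 with control replicate 1, 2 or 3 left out. In these settings 2.76% to 7.14% of all genes were lower. The summed level of the genes without a class was 2439, 2393 and 2836 CPM in low nitrogen replicates 1 to 3, against 3467, 2838 and 3087 CPM in controls. The groups did not overlap, although low nitrogen replicate 3 and control replicate 2 were nearly equal. The totals of RPS7, RPS12, RPS16 and RPS21 stood at 77.0% to 79.3% of the control mean. These numbers also name cytosolic proteins (eS7, eS12, uS9 and eS21), but the symbols alone do not settle it. One RPS16 gene (Nitab4.5_0000113g0070) was at 38.1, 36.7 and 47.0 CPM in low nitrogen and at 68.7, 55.0 and 61.8 CPM in controls, below them throughout (log2 fold change -0.61, SE 0.15, edgeR adjusted p 0.344). An RPS7 gene (Nitab4.5_0001536g0080) was at 42.1 ± 3.98 CPM in low nitrogen and 58.3 ± 6.93 CPM in controls (log2 fold change -0.47, SE 0.14). RPS14 without a letter totalled 14.2 ± 2.06 CPM in low nitrogen and 18.0 ± 1.15 CPM in controls, without overlap (SD, n = 3 each).

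Other names of this group were near or above the controls. RPS29 totalled 519.7, 428 and 489 CPM in low nitrogen and 521.5, 472 and 490 CPM in controls, at 96.9% of the control mean. The leading RPS29 gene held 43.6%, 37.9% and 35.5% of the RPS29 counts in low nitrogen, above the 32.6%, 31.3% and 34.8% in controls (adjusted p of the copy shares 0.489). RPS13, a single gene with counts (Nitab4.5_0001474g0080), was at 8.96, 8.68 and 7.21 CPM in low nitrogen and at 5.12, 4.65 and 8.07 CPM in controls, with overlap through control replicate 3 (log2 fold change 0.48, SE 0.25). The RPS10 gene with most counts among those without a letter (Nitab4.5_0006756g0010) was at 9.49 ± 0.777 and 7.06 ± 2.44 CPM in low nitrogen and controls. RPS1 and RPS19 without a tag had 0 counts in every library.

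The plastid ribosomal protein genes did not stand on 1 side. Of 14 tested genes 6 were above and 8 below 0, with a median log2 fold change of -0.03 and a range of -0.29 to 0.30, and 0 had an unadjusted p under 0.05. Their summed level was 122, 108 and 116 CPM in low nitrogen replicates 1 to 3, against 107, 99.4 and 129 CPM in controls, so that the groups overlapped. Within each group it was highest in the library with the most green tissue markers, and their part in the values was not tested. RPS1, the plastid protein that helps to bind messenger RNA, had 4 genes, totalling 59.2, 56.2 and 58.0 CPM in low nitrogen and 50.2, 51.1 and 62.4 CPM in controls. One of these (Nitab4.5_0003178g0010) was at 18.2, 17.9 and 17.4 CPM in low nitrogen and at 14.7, 15.8 and 15.4 CPM in controls, above them without overlap (log2 fold change 0.22, SE 0.12, edgeR adjusted p 0.493). RPS20, RPS31 and RPS9 of the plastid totalled 25.4 ± 3.11, 10.9 ± 1.20 and 16.2 ± 1.91 CPM in low nitrogen, against 23.2 ± 3.10, 11.3 ± 1.85 and 16.8 ± 3.91 CPM in controls. Whether plastid and cytosolic genes differed in their response was not tested.

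Genes with mitochondrial tags were nearly silent in these libraries of polyadenylated RNA. Of 29 genes 24 had no counts, and the other 5 held 82 counts over all 6 libraries. The 10 RPS3 genes together had 13, 12 and 13 counts in low nitrogen replicates 1 to 3 and 12, 16 and 13 in controls. None of the 29 passed the filter as a single gene. The 3 genes of RPS19 had 0 counts, which allows a level of up to 0.187 to 0.244 CPM in a library (3 counts, counting error only).

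The 10 RPS4 genes with the tag of the resistance receptor were mostly above 0 (8 of 10, median log2 fold change 0.27), and their counts were led by 1 gene. Their total was 340, 179 and 164 CPM in low nitrogen replicates 1 to 3, against 90.1, 111 and 176 CPM in controls, with overlap through control replicate 3 (log2 fold change 0.86, SE 0.36, unadjusted p 0.0464, edgeR adjusted p 0.423). With 1 library left out this fold change ran from 0.44 (without low nitrogen replicate 1) to 1.17 (without control replicate 3). Nitab4.5_0000844g0060, which held 66.8% to 77.7% of these counts, was at 262, 139 and 126.4 CPM in low nitrogen and at 60.1, 77.4 and 125.8 CPM in controls. Low nitrogen replicate 3 and control replicate 3 were all but equal (log2 fold change 1.00, SE 0.37, edgeR adjusted p 0.396), and the fold change ran from 0.59 to 1.35 with 1 library left out. Nitab4.5_0003247g0040 was at 10.8, 9.56 and 8.88 CPM in low nitrogen and at 6.82, 8.40 and 6.02 CPM in controls (log2 fold change 0.46, SE 0.19). Nitab4.5_0000614g0090 was at 37.1, 4.12 and 4.86 CPM in low nitrogen and at 0.406, 1.05 and 18.5 CPM in controls. It was highest in the libraries with the most green tissue markers of their groups, and the sign of its fold change turned without low nitrogen replicate 1. Nitab4.5_0000288g0040 was at 6.59 ± 1.07 CPM in low nitrogen and 5.60 ± 1.40 CPM in controls. At an unadjusted p under 0.05, 2 of the 10 genes (20.0%) were higher, against 6.1% of all genes tested.

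Counted over all 253 members, 182 genes were tested. With edgeR 44 (24.2%) were lower and 2 (1.1%) higher at an unadjusted p under 0.05, against 5.66% and 6.1% of all genes. Both higher members were RPS4 genes with the tag of the resistance receptor. With edgeR, DESeq2 and limma-voom 0 passed the threshold. The summed level of all members was 12850, 12762 and 14938 CPM in low nitrogen and 17920, 14681 and 16517 CPM in controls.

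Genes of the other ribosomal subunit were mostly below 0 as well, and the 2 subunits were not tested against each other. Of 319 tested large subunit genes (RPL), 284 had a fold change below 0, and the median on the log2 scale was -0.34. At an unadjusted p under 0.05, 95 (29.8%) were lower and 3 (0.94%) higher, against 5.66% and 6.1% of all genes tested. With 1 library left out the count of 95 ran from 12 (without control replicate 1) to 164 (without low nitrogen replicate 3). In these 2 settings 2.76% and 7.14% of all genes were lower. The summed level of large subunit genes was 22008, 22555 and 26512 CPM in low nitrogen and 32087, 26210 and 29354 CPM in controls. This was the same order of the 6 libraries as for the cytosolic small subunit. Of 17 tested genes of the acidic stalk (RPP), which binds translation factors, 16 were below 0, with a median of -0.33. At an unadjusted p under 0.05, 3 (17.6%) were lower. RPL and RPP names were not split by locus tag and can include plastid or other proteins.

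Factors that build ribosomes or start translation were mostly below 0 as well. Of 19 tested ribosome biogenesis genes (the nucleolar proteins NOP56, NOP58 and others) 17 were below 0, with a median of -0.24. Of 50 tested initiation factor genes, whose products load messenger RNA on the small subunit, 42 were below 0, with a median of -0.21. At an unadjusted p under 0.05, 4 (21.1%) biogenesis genes and 13 (26%) initiation factor genes were lower, against 5.66% of all genes. With 1 library left out these counts ran from 0 to 5 for biogenesis and from 3 to 14 for initiation factors. The summed level of initiation factors was 2230, 2126 and 2394 CPM in low nitrogen and 2750, 2575 and 2536 CPM in controls, without overlap. That of biogenesis genes was 1458, 1229 and 1263 CPM in low nitrogen and 1666, 1318 and 1545 CPM in controls, with overlap. The TOR pathway, which ties ribosome production to nutrient supply, had 10 tested genes, of which 6 were below 0 (median -0.12) and 0 had an unadjusted p under 0.05. With edgeR 0 genes of these lists passed the threshold. DESeq2 placed 1 large subunit gene and 1 initiation factor gene past it, both lower.

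Markers of dividing cells were mostly below 0 too. Of 52 tested genes (A- and B-type cyclins, CDKB kinases and DNA replication genes) 49 were below 0, with a median log2 fold change of -0.50. At an unadjusted p under 0.05, 1 (1.92%) was lower, against 5.66% of all genes tested. The summed level of the dividing cell markers was 473, 702 and 776 CPM in low nitrogen replicates 1 to 3, against 1079, 684 and 898 CPM in controls. The order of libraries within each group was that of the cytosolic small subunit. Of 94 tested green tissue markers, 2 (2.13%) were lower and 1 (1.06%) higher at an unadjusted p under 0.05, against 5.66% and 6.1% of all genes. Below 0 were 74 of the 94, with a median of -0.52. This median rests on control replicate 3, without which it was 2.83, and the other controls had lower summed green markers than any low nitrogen library. It also depended on the method with all 6 libraries kept. The median was 0.83 with limma-voom (17 of 94 below 0) and 1.03 in a fit with replicate number as a block (9 of 94 below 0). The part of either marker list in the ribosomal protein values was not tested.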

How the data were processed

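The authors deposited raw counts, whole numbers for each of 69500 genes with Nitab4.5 identifiers, 44455 of them with a symbol. HISAT2 is named in the submitters' processing notes. Counting tool, genome build, strand setting and the handling of multi-mapping reads are not given in the labels, so reads of near-identical or overlapping genes may have been divided or lost. RNA was polyadenylated, per the labels' protocols. The RefSeq gene table (ASM71507v2) matched 0 identifiers, so no coordinates are given.

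Genes were kept by edgeR's filterByExpr and libraries scaled by TMM. Groups were compared in R 4.3.3 with edgeR 4.0.16 (glmQLFit, glmQLFTest), with p-values adjusted by Benjamini-Hochberg across the whole set of tested genes (threshold 0.05). Fold changes are log2 values of low nitrogen over control, and the SE was taken from the F statistic. DESeq2 1.42.0 and limma 3.58.1 (voom) were alternatives, beside other scalings and filters, a replicate block and libraries left out. Protein totals were tested in the same way, with members summed and all other genes as single rows. The planned key for totals used the RPS number alone, which would join different proteins called RPS4. Values are therefore given with a key split by locus tag, chosen after seeing the data, and both keys gave 0 calls. Copy shares used diffSpliceDGE. The procedures were tested on simulated data.

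Named genes were, by rule, the 8 largest totals with their leading copy, the 6 smallest p in each direction, and the 4 proteins with the widest range between copies (mean of at least 5 CPM). Some members that meet the rule stay in every fit and count but are not reported by name here. RPS29, RPS24 copies and further totals were added after their values were seen. A list for subunit SA, written in capitals, matched 0 genes. The members and lists were chosen with earlier results of these data known.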

Additional observations from a re-analysis of the deposited data

How the results depend on the processing

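RPS genes and RPS protein totals past the threshold numbered 0 in every setting run. Of all genes tested, 588 passed with DESeq2 and 11 without control replicate 3. The summed RPS level (log2 ratio -0.35 to -0.21 with 1 library left out) and the median fold change of RPS genes kept their sign and moved by less than 1 SD. All 19 cytosolic totals were below 0 in each setting run for totals (other scalings, DESeq2, limma-voom, the replicate block and libraries left out). Counts at an unadjusted p under 0.05 moved most. Lower genes numbered 3 to 76 of all members and 1 to 54 of the cytosolic ones with 1 library left out, and 2 and 1 without control replicate 3 and low nitrogen replicate 1 together. Of all genes tested, 2.76% to 7.14% were lower with 1 library left out, and 4.83% without those libraries together. Higher members numbered 0 to 4 with 1 library left out, 4 without those libraries together, 1 with RLE factors, no filter or DESeq2, and 0 with names with a copy letter only. No pairing by replicate number was seen, but deviations centred within groups of 3 libraries cannot exclude one. Deviations of same-numbered libraries correlated at -0.32, 0.10 and -0.27, and those of other pairs at -0.21 to 0.38. The replicate block gave 17 lower and 0 higher members. Of the lower ones 14 were cytosolic (12.4% of the cytosolic genes), where 3.61% of all genes were lower. Copy shares passed the threshold for 0 to 1 proteins with 1 library left out and for 1 without control replicate 3 and low nitrogen replicate 1 together. These were RPS20 (adjusted p 0.0483 without low nitrogen replicate 3, where the planned key joined plastid and cytosolic genes) and RPS4 (adjusted p 0.0105 without control replicate 3 and 0.0120 without both libraries, for the resistance genes alone).

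Signs turned for small fold changes. With 1 library left out these ran from -0.59 to 4.36 for Nitab4.5_0000614g0090, -0.20 to 0.0217 for Nitab4.5_0000967g0040, -0.17 to 0.0369 for Nitab4.5_0001961g0030, -0.0342 to 0.13 for Nitab4.5_0002769g0030 (-0.0371 without the libraries left out together), and -0.0530 to 0.13 for Nitab4.5_0002840g0050. Totals ran from -0.12 to 0.0302 for RPS29, -0.19 to 0.0112 for plastid RPS31 and -0.23 to 0.11 for plastid RPS9 (0.0806 without the libraries left out together). The cause of these shifts was not tested.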

Other observations

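RPS24A copies, looked at after their values were seen, fell into 2 sets by fold change. Nitab4.5_0002840g0050 and Nitab4.5_0002361g0130 were at 226 ± 26.1 and 167 ± 20.8 CPM in low nitrogen, against 218 ± 22.6 and 161 ± 23.1 CPM in controls (SD, n = 3 each). The other 4 tested copies averaged 62.6 to 85.1 CPM in low nitrogen and 86.0 to 110.1 CPM in controls. The test of copy shares gave RPS24 an adjusted p of 0.531 over all groups of genes, so that this split did not pass the threshold.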
